A study of Mus musculus with 4 samples.

Results

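Lysosome and endosome genes were examined in long-read RNA libraries of mouse neural stem cells. The set was named by gene symbol: membrane proteins, proteases, glycosidases, lipid hydrolases and their cofactors, subunits of the vacuolar proton pump (V-ATPase), the receptors that sort lysosomal enzymes, transcription factors of the lysosome and the autophagy receptor Sqstm1. Of 37 symbols, 36 were found among the 14949 genes of the table, with 158 of its 46637 isoforms that named a gene, and Tfeb was not analysed here. All 36 passed the expression filter that left 9882 genes for comparison.

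The cells were primary neural stem cells grown as neurospheres from the neocortex of floxed mouse embryos, and lipid nanoparticles (LNP) were used to bring in mRNA of the Cre recombinase, which excises floxed exons. Tut1 encodes a terminal uridylyltransferase whose substrate is the 3′ end of U6 snRNA, and Trp53 encodes p53. There was 1 library for each of 4 groups at 3 days. The control was Tut1f/f with an empty LNP and no Cre mRNA. The other groups had Cre mRNA: Tut1f/f;Cre, here the Tut1-deleted library, Trp53f/f;Cre, here the library labelled Trp53-deleted, and Tut1f/f;Trp53f/f;Cre, here the library labelled double-deleted. Values of 4 libraries are given in this order, the usual order below. Thus Trp53 was not floxed in the control, floxed Tut1 was not in Trp53f/f;Cre, and no group held floxed Trp53 without Cre mRNA. No group had a replicate, so differences between libraries could not be checked on replicates, and since reads were amplified by PCR without molecular identifiers, all intervals cover counting error only.

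The libraries held between 2863392 and 4244467 reads that named a gene, and 17.2% of all reads named none in the control, against 30.2%, 28.9% and 27.3% in the 3 libraries with Cre mRNA. That share moves with every comparison with the control, and its part in them was not tested. Tut1 had 37 reads in the control, 11 in the Tut1-deleted library, 14 in the library labelled Trp53-deleted and 27 in the library labelled double-deleted, so that its level was low in a library labelled as intact and high in one labelled as deleted. Trp53 had 175, 67, 10 and 19 reads in the usual order. The deletion removes an exon of Tut1, so gene totals need not show it, and each direction given for these libraries rests on their labels. The labels gave the cells as neural cells of the brain. Of 10 neural stem cell markers, 9 were in the table and all 9 passed the filter (summed level 11589.5 to 13388.9 CPM, defined below), whereas P2ry12, with 1 to 3 reads a library, was the only one of 12 microglia and macrophage markers there.

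Lysosomes are acidic organelles in which hydrolases break down proteins, glycans and lipids that arrive by endocytosis and autophagy. The V-ATPase makes the lumen acidic: its V1 sector hydrolyses ATP in the cytosol and its V0 sector carries protons through the membrane. Most soluble hydrolases are tagged with mannose 6-phosphate and carried by receptors from the Golgi to endosomes, and many lysosomal genes share a promoter element, named CLEAR, that is bound by TFEB and TFE3. In neural stem cells lysosomes are known to take part in the balance between quiescence and activation.

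Promoters of the set were searched for the palindrome TCACGTGA, the centre of the CLEAR element, and for its inner letters CACGTG, which every copy of the longer motif contains. Both read the same on either strand. RefSeq promoters (GRCm38.p6, from 250 bases before to 50 after the annotated start) were given for 32 of the 37 symbols, and none was given for Ctsb, Asah1, Atp6v1b2, Atp6v1g1 and M6pr. Each window shown is 80 bases long, read 5′ to 3′ on the gene's strand, and was chosen because it holds the longer motif, in capitals.
Atp6v0e, chr17:26676337-26676416, plus strand: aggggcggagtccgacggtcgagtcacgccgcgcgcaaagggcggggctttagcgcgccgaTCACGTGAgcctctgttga
Ctsd, chr7:142387883-142387962, minus strand: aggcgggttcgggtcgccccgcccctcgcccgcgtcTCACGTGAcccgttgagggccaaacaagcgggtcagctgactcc
Atp6v1a, chr16:44139348-44139427, minus strand: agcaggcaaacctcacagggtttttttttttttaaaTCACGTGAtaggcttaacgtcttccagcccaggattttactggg
Atp6v0d1, chr8:105566044-105566123, minus strand: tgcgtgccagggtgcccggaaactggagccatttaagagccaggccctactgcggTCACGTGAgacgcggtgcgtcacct
Igf2r, chr17:12769692-12769771, minus strand: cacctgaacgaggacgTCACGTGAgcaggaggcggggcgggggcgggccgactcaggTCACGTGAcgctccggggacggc
Ctsa, chr2:164833714-164833793, plus strand: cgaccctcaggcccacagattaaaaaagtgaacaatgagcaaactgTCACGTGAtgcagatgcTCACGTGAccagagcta

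The palindrome was held by 7 of the 32 promoters (21.9%), against 304 of 27025 promoters of all genes (1.12%). The inner 6 letters were held by 12 of 32 (37.5%), against 8.09% of all. Igf2r and Ctsa each held 2 copies of the palindrome, and Mcoln1, the lysosomal calcium channel, was the seventh gene with it. Lamp1 held the shorter motif 4 times and the palindrome in none of them. A match is a run of letters in this window and not a measured site, and factor binding was not measured here.

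**Figure D1:**
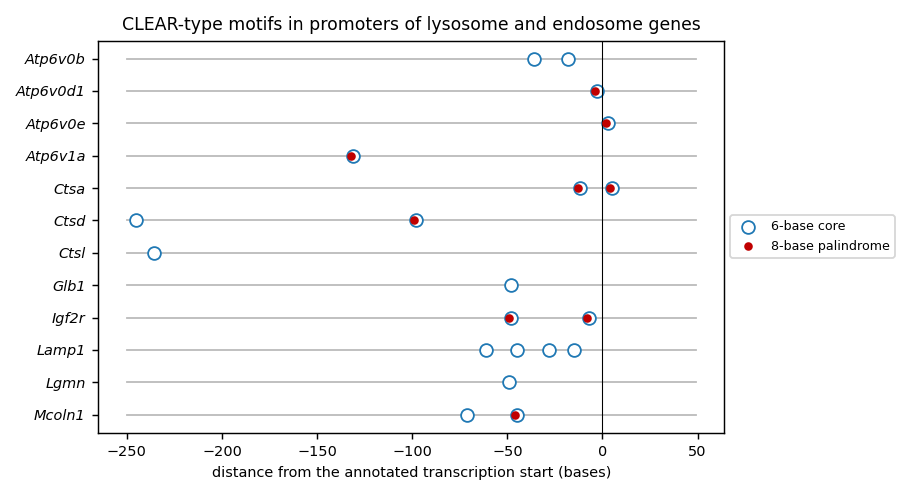
Position of the first base of each motif copy relative to the annotated transcription start (x axis, in bases) for each of the 12 genes with a copy. Open circles are the 6-base inner motif, filled dots the 8-base palindrome, and most copies lie within 75 bases of the start, with those of Atp6v1a, Ctsd and Ctsl farther upstream.

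Levels are given as CPM, the reads of a gene per 1000000 gene reads after TMM scaling, a scaling that evens out differences in RNA composition between libraries. The 36 genes together held 14256 reads in the control, 9473 in the Tut1-deleted library, 10189 in the library labelled Trp53-deleted and 10335 in the library labelled double-deleted, or between 0.297% and 0.361% of gene reads. Of the 36 genes, 23 (63.9%) were highest in the control, against 37.5% of all 9882 genes, and 17 (47.2%) were lowest in the library labelled Trp53-deleted, against 26.0%. In bulk RNA, fewer cells of a type and less RNA per cell cannot be told apart.

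**Figure D2:**
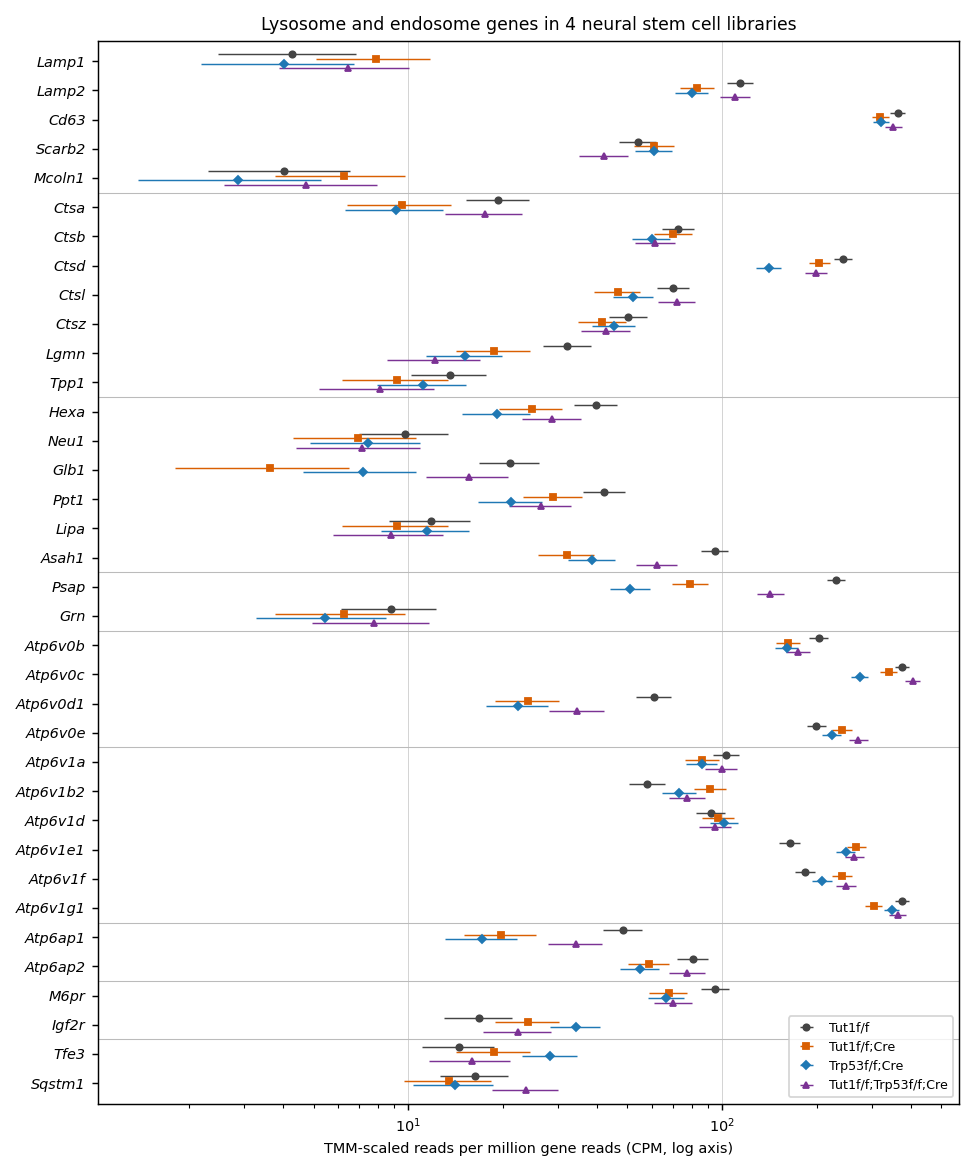
Level of each of the 36 genes (rows, grouped by role) in the 4 libraries, in CPM on a log axis, with exact Poisson 95% intervals as bars. Psap, Asah1, Atp6v0d1 and Lgmn lie higher in the control than in each of the other libraries, and the V1 subunits lie close together.

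Ratios between single libraries have no test. Different here means a ratio of at least 2-fold with an exact 95% interval that excluded no change, and the share of all 9882 genes that were different is the background. Between the Tut1-deleted library and the control, 6 of 36 genes were different, all lower, where 26.0% of all genes were different, 13.3% lower and 12.7% higher. The median log2 ratio was -0.31 over the set and -0.01 over all genes. Between the library labelled Trp53-deleted and the control, 9 were different, 8 lower and 1 higher, against a background of 27.8% (15.3% lower, 12.5% higher), with a median of -0.37 against -0.02. The shares of the set that were different, 16.7% and 25.0%, thus lay below the background, while the shares that were lower, 16.7% and 22.2%, lay above it. These shares have no test. With library totals in place of TMM, which raises the median over all genes by 0.12 on the log2 scale in both, the splits were 5 lower and 1 higher of 6, and 5 lower and 2 higher of 7. The shares of the set were then 16.7% and 19.4%, against 26.3% and 27.8% of all genes. The share of all genes that were lower was not counted for that scaling, so the lower shares cannot be set against it there.

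Among glycosidases, lipid hydrolases and cofactors, Psap, Asah1 and Glb1 were different from the control in more than 1 library. Psap encodes prosaposin, the precursor of the saposins that present sphingolipids to hydrolases. It lies at GRCm38 chr10:60277627-60302597 and had 917 reads (231 CPM) in the control, 240 (79.2 CPM) in the Tut1-deleted library, 178 (51.1 CPM) in the library labelled Trp53-deleted and 421 (143 CPM) in the library labelled double-deleted. All 3 libraries with Cre mRNA lay below the control, and the library labelled double-deleted lay above the other two. The log2 ratios to the control were -1.54 (95% interval -1.75 to -1.33), -2.17 (-2.41 to -1.94) and -0.69 (-0.86 to -0.52). Grn, which encodes progranulin, a partner of prosaposin in transport to the lysosome, had 19 to 35 reads a library and was different in no comparison.

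Asah1, the acid ceramidase, had 377 reads (94.8 CPM), 97 (32.0 CPM), 134 (38.5 CPM) and 183 (62.0 CPM) in the same order. Its log2 ratios to the control were -1.57 (-1.90 to -1.24), -1.30 (-1.60 to -1.01) and -0.61 (-0.87 to -0.35). Glb1, the lysosomal β-galactosidase, had 84 reads (21.1 CPM), 11 (3.63 CPM), 25 (7.17 CPM) and 46 (15.6 CPM) in that order. Glb1 was therefore lowest in the Tut1-deleted library, at a log2 ratio of -2.54 (-3.60 to -1.63), next in the library labelled Trp53-deleted at -1.56 (-2.26 to -0.90), and near the control in the library labelled double-deleted at -0.44 (-0.99 to 0.10). Hexa, a subunit of β-hexosaminidase, had 158 reads (39.7 CPM), 75 (24.8 CPM), 67 (19.2 CPM) and 85 (28.8 CPM), and only the ratio of -1.05 (-1.48 to -0.63) in the library labelled Trp53-deleted reached 2-fold, but not with library totals, at -0.93. The other 3 genes of this group, Neu1 (a sialidase), Ppt1 (which removes palmitate from proteins) and Lipa (the acid lipase), lay between -0.99 and -0.04 on the log2 scale in all 3 comparisons with the control and were different in none.

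All 7 proteases had log2 ratios below 0 in the Tut1-deleted library and in the library labelled Trp53-deleted, and 6 did in the library labelled double-deleted, against 50.3%, 50.9% and 50.7% of all genes. With library totals these were 6, 7 and 5 of 7, against 44.9%, 45.7% and 43.3%. Ctsa, a carboxypeptidase that protects Glb1 and Neu1 from breakdown in a complex, had 77 reads (19.4 CPM), 29 (9.57 CPM), 32 (9.18 CPM) and 52 (17.6 CPM). It was lower at -1.02 (-1.69 to -0.38) and -1.08 (-1.72 to -0.46) in the first pair of Cre libraries and at -0.14 (-0.67 to 0.39) in the third. With library totals both of the former lay under 2-fold, at -0.89 and -0.96. Lgmn, an endopeptidase that cuts after asparagine, had 128 reads (32.2 CPM), 57 (18.8 CPM), 53 (15.2 CPM) and 36 (12.2 CPM). Lgmn was the only gene of the set different from the control in the library labelled double-deleted, at -1.40 (-1.97 to -0.86), after -0.77 (-1.25 to -0.31) in the Tut1-deleted library and -1.08 (-1.57 to -0.61) in the library labelled Trp53-deleted, the last of these under 2-fold with library totals, at -0.97. Ctsb, Ctsd, Ctsl, Ctsz and Tpp1 lay between -0.79 and 0.04 in these comparisons and were different in none.

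Of 12 genes of the proton pump, 2 were different from the control in the Tut1-deleted library and in the library labelled Trp53-deleted, both lower (16.7%, against 13.3% and 15.3% of all genes), and none was in the library labelled double-deleted. Atp6v0d1, a V0 subunit on the cytosolic face of the membrane sector, had 241 reads (60.6 CPM), 73 (24.1 CPM), 78 (22.4 CPM) and 102 (34.6 CPM), and log2 ratios of -1.33 (-1.73 to -0.95), -1.44 (-1.82 to -1.06) and -0.81 (-1.16 to -0.47). Atp6ap1, an accessory protein that guides assembly of the pump, had 192 reads (48.3 CPM), 60 (19.8 CPM), 60 (17.2 CPM) and 101 (34.2 CPM), and log2 ratios of -1.29 (-1.73 to -0.86), -1.49 (-1.93 to -1.06) and -0.50 (-0.86 to -0.14). The 6 V1 subunits of the set lay between -0.30 and 0.71 in all 3 comparisons with the control, none of them different. A further V1 subunit, Atp6v1c1, outside the set, was at 66.9 CPM in the control and 35.3, 29.8 and 39.7 CPM in the others, with log2 ratios of -0.92 (-1.26 to -0.59), -1.16 (-1.51 to -0.83) and -0.75 (-1.08 to -0.44), and so was different in the library labelled Trp53-deleted. The summed level of the 6 was 976 CPM in the control and 1088, 1064 and 1146 CPM in the other libraries. Atp6v1e1, a stalk subunit, was highest among the 6 in ratio at 0.71 (0.56 to 0.86), 0.59 (0.44 to 0.74) and 0.69 (0.53 to 0.84), from 164 CPM in the control to 268, 248 and 264 CPM. The other V0 genes, Atp6v0b, Atp6v0c and Atp6v0e, lay between -0.45 and 0.45, and Atp6ap2 between -0.56 and -0.06.

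Membrane proteins, sorting receptors and regulators were mostly near the control. Lamp2, Cd63, Scarb2, Lamp1 and Mcoln1 were different in no comparison, and Lamp1 and Mcoln1 had only 10 to 24 reads a library, so that a 2-fold difference was not detectable at this depth for some pairs. Igf2r, the cation-independent mannose 6-phosphate receptor, had 67 reads (16.8 CPM), 73 (24.1 CPM), 119 (34.2 CPM) and 66 (22.4 CPM). All of these reads were on an isoform named by a read, and none was on an Ensembl transcript. Igf2r was the only gene higher than the control by the rule, at 1.02 (0.58 to 1.47) in the library labelled Trp53-deleted. Tfe3, a transcription factor of lysosomal genes, lay just under the threshold there at 0.96 (0.48 to 1.46), from 58 reads (14.6 CPM) to 99 (28.4 CPM), and passed it with library totals at 1.08. Lamp1 did so in the Tut1-deleted library, from 0.89 to 1.01. M6pr, the smaller mannose 6-phosphate receptor, lay at -0.49, -0.52 and -0.45.

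**Figure D3:**
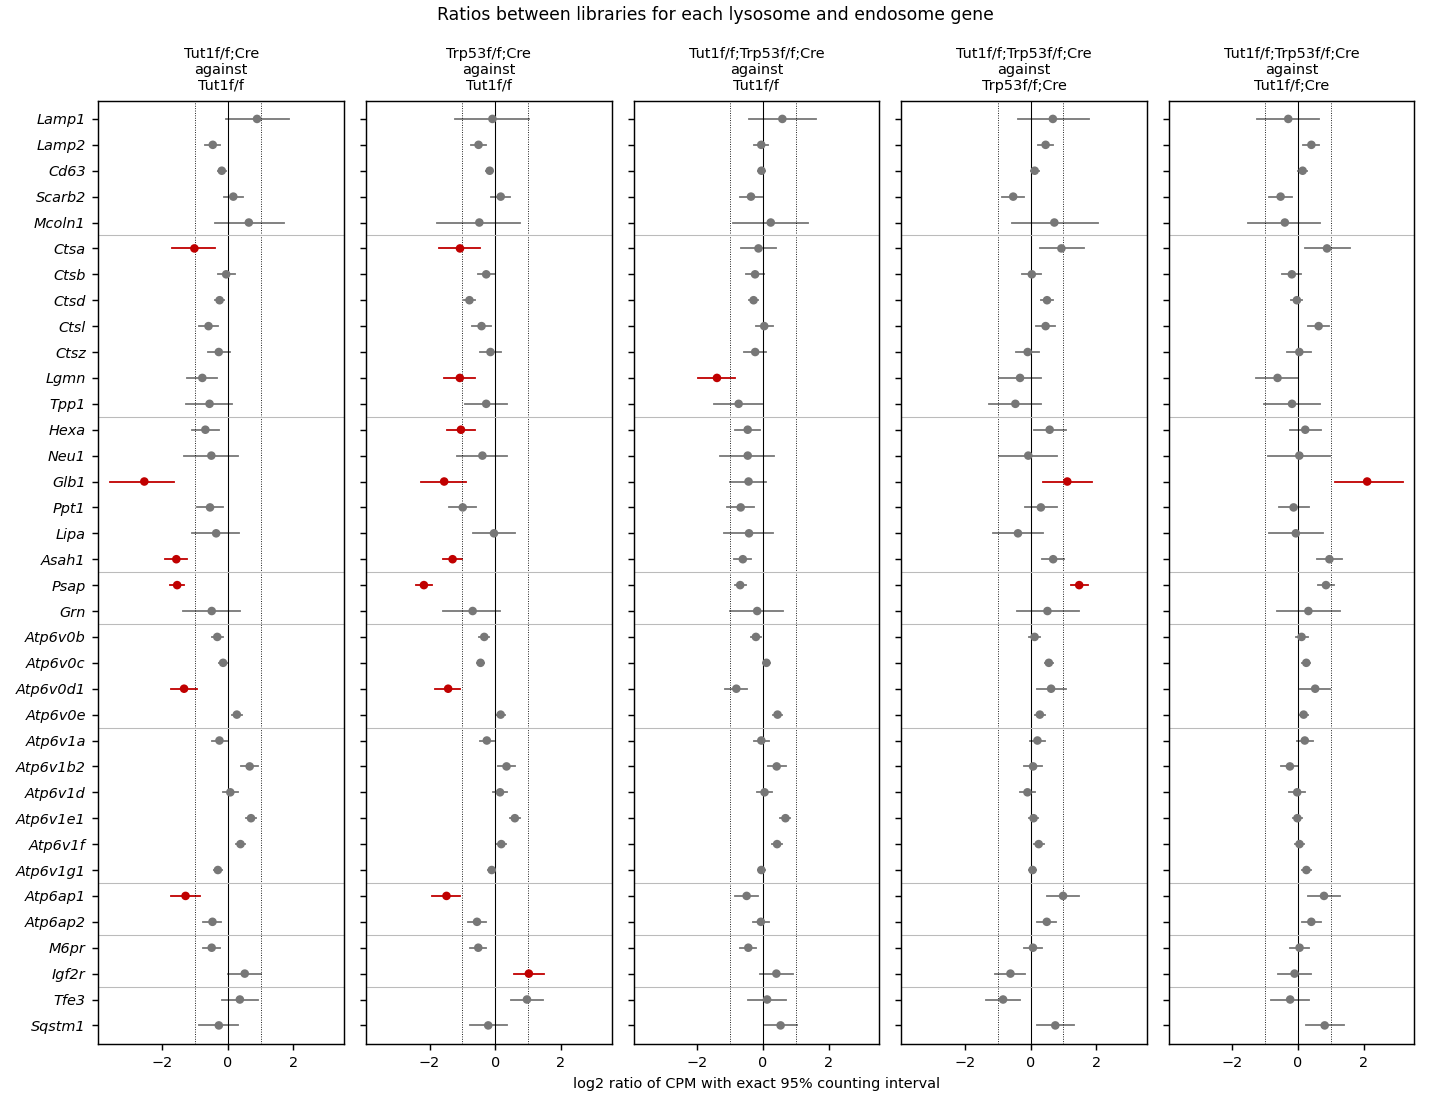
Log2 ratios of CPM (x axis) with exact 95% counting intervals for the 36 genes (rows, grouped by role) in 5 comparisons of 2 libraries. Red marks genes at least 2-fold apart with an interval that excludes 0: 6, 9, 1, 2 and 1 genes from left to right. Dotted lines mark 2-fold.

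Between the library labelled double-deleted and the control, 1 gene of 36 was different, Lgmn, against 20.1% of all genes (9.76% lower), and the median was -0.16. This library is also the subject of the comparisons that ask about Tut1 where both libraries are labelled as Trp53-deleted, and about Trp53 where both are labelled as Tut1-deleted. Against the library labelled Trp53-deleted, 2 genes were different, both higher, where 7.24% of all genes were different and 4.68% higher. They were Psap at 1.48 (1.23 to 1.74) and Glb1 at 1.12 (0.39 to 1.88). Atp6ap1 at 0.99 (0.52 to 1.48) and Ctsa at 0.94 (0.28 to 1.62) lay just under 2-fold, and the median was 0.27 against 0.03 for all genes. Against the Tut1-deleted library, 1 gene was different, Glb1 at 2.10 (1.13 to 3.20), where 4.49% of all genes were different and 2.23% higher, and the median was 0.08 against 0.04.

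The comparison for Tut1 was thus made at intact and, by label, at deleted Trp53 in libraries that the pairs do not share. For 21 of 36 genes (58.3%) the log2 ratio was below 0 in the first and above 0 in the second, against 31.7% of all genes, for 4 the reverse held (11.1% against 28.9%), and for 11 the sign was the same. This count of signs has no threshold and no test. Its order of libraries is also that of Tut1 reads, which were higher in the control and in the library labelled double-deleted than in the other two. The same libraries differed in sex-linked RNA: Xist had 0, 44, 49 and 0 reads, and the Y-linked Ddx3y had 85, 0, 0 and 66, in the usual order. Lamp2, Atp6ap1, Atp6ap2 and Tfe3 are on the X chromosome, while Psap, Glb1, Asah1, Ctsa and Atp6v0d1 are on autosomes. The part of the sex of the cells in these ratios was not tested.

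Gene counts were also fitted over all 4 libraries with edgeR's quasi-likelihood test, called at a Benjamini-Hochberg adjusted p under 0.05 and at least 2-fold. For Tut1 status, with Trp53 status in the model, none of the 36 genes was called and none had an unadjusted p under 0.05 (background 0%, with 187 genes of 9882 under an unadjusted 0.05). For Trp53 status none of the 36 was called either, and none had an unadjusted p under 0.05 (background 0.0101%). DESeq2 called 0 of the 36 in both and gave none an unadjusted p under 0.05. The signs for Tut1 status were 24 lower and 12 higher, but 15 lower and 21 higher with library totals, so that no direction is given for it. The model leaves 1 residual degree of freedom.

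The second fit set the 3 libraries with Cre mRNA against the control, whose lone library was assumed to vary like the others and cannot be told apart from its culture. Each library with Cre mRNA was also labelled as deleted for Tut1, Trp53 or both. The fit took these genotypes as replicates and cannot tell Cre mRNA apart from the deletions. In it 4 of 36 genes fell (11.1%), against 16.3% of all genes called (8.40% lower, 7.94% higher), and none rose. Psap fell by 1.34 on the log2 scale (SE 0.39, edgeR adjusted p = 0.0323), Atp6v0d1 fell by 1.17 (SE 0.29, adjusted p = 0.0169), Asah1 fell by 1.10 (SE 0.32, adjusted p = 0.0318) and Lgmn fell by 1.06 (SE 0.30, adjusted p = 0.0318). Glb1 had the estimate -1.27 (SE 0.51, edgeR adjusted p = 0.101), Atp6ap1 -1.03 (SE 0.34, adjusted p = 0.0563) and Atp6v1e1 0.66 (SE 0.22, adjusted p = 0.0506), and were not called. Without the Tut1-deleted library 0 of the 36 were called (6 with an unadjusted p under 0.05), against 5 without the library labelled Trp53-deleted and 6 without the library labelled double-deleted. DESeq2 called 2 and library totals left 1, Atp6v0d1.

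Reads of the set were mostly on annotated isoforms. The 158 isoforms were 61 Ensembl transcripts, 23 variants of one and 74 named by a read, and the 61 held 83.8% to 85.0% of the reads of the set. Of the 61, 13 were annotated as retaining an intron. Among these, ENSMUST00000173269 held 76.2% to 84.6% of Neu1 reads and ENSMUST00000161705 held 68.75% to 84.2% of Mcoln1 reads. Genes had 1 to 14 isoforms, with a median of 4. Usage is an isoform's share of its gene's reads, and single libraries were compared by a two-sided Fisher's exact test of their read counts, adjusted over all isoforms tested and called at an adjusted p under 0.05 with at least 10 percentage points. It compares libraries, not conditions. Of the isoforms of the set, 4 of 95 were called between the Tut1-deleted library and the control (background 8.66%), 7 of 97 between the library labelled Trp53-deleted and the control (9.12%) and 2 of 101 between the library labelled double-deleted and the control (6.49%). Between the latter library and the libraries labelled Trp53-deleted and Tut1-deleted, 3 of 86 (background 1.24%) and 1 of 84 (0.150%) were called.

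Coding sequence that separates isoforms is shown for Psap, Sqstm1 and Lamp2, where the isoforms called encode different proteins, from GENCODE M21 transcripts (GRCm38). Capitals mark the bases found only in the isoform named, and lower case the coding bases beside them.
Psap, 9-base exon, chr10:60297537-60297545, plus strand: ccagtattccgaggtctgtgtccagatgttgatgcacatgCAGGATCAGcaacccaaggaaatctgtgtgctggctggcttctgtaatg
Sqstm1, long form, chr11:50202399-50202512, minus strand: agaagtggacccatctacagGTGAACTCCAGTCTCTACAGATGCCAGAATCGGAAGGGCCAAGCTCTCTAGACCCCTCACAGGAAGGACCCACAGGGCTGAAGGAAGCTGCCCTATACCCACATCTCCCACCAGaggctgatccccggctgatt
Lamp2a, chrX:38405435-38405571, minus strand: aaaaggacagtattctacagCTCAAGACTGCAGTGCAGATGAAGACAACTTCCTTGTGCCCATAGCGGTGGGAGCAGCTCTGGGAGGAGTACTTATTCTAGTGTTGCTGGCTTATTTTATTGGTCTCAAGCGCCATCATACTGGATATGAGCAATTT
Lamp2b, chrX:38421715-38421851, minus strand: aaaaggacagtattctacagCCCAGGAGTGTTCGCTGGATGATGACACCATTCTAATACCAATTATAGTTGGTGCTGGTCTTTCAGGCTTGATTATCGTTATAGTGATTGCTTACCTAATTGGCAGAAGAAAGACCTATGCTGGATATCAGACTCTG

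The Psap isoform ENSMUST00000179238 carries a 9-base coding exon that the main isoform lacks (1671 against 1662 coding bases). It had 209 of 917 Psap reads in the control (22.8%, Wilson 95% interval 20.2 to 25.6), 38 of 240 in the Tut1-deleted library (15.8%, 11.8 to 20.99), 45 of 178 in the library labelled Trp53-deleted (25.3%, 19.5 to 32.1) and 55 of 421 in the library labelled double-deleted (13.1%, 10.2 to 16.6). Usage was lower in both libraries labelled Tut1-deleted than in the other two. It was called between the libraries labelled double-deleted and Trp53-deleted, at a difference of -12.2 points (Fisher's exact test, adjusted p = 0.0261), and not between the Tut1-deleted library and the control.

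Sqstm1 encodes the receptor that delivers ubiquitin-tagged cargo to autophagosomes. The long isoform ENSMUST00000102774, which holds the 114 coding bases above that the short annotated one lacks, had 46 of 65 reads in the control (70.8%, 58.8 to 80.4), 11 of 41 in the Tut1-deleted library (26.8%, 15.7 to 41.9), 20 of 49 in the library labelled Trp53-deleted (40.8%, 28.2 to 54.7) and 29 of 70 in the library labelled double-deleted (41.4%, 30.6 to 53.1). The control thus stood above all 3 libraries with Cre mRNA, whose intervals overlap each other. The differences were called at -43.9, -30.0 and -29.3 points (Fisher's exact test, adjusted p = 4.4e-04, 0.0182 and 0.0131). A variant of the short isoform was at 27.7% (18.3 to 39.6) in the control and at 58.5% (43.4 to 72.2), 44.9% (31.9 to 58.7) and 47.1% (35.9 to 58.7) in the others, in the usual order. With Ensembl transcripts alone, which leave out that variant, the differences in the last pair of libraries were -14.5 and -15.0 points and were not called. The Tut1-deleted library then had only 11 and 4 reads on the 2 Ensembl transcripts, under the minimum of 20 for the gene, so it could not be tested.

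Lamp2 has alternative last exons, and the coding parts shown, 137 bases in each, have 73 identical positions (53.3%) without gaps. They encode the membrane span and the cytosolic tail. Lamp2a (ENSMUST00000016678) is the receptor of chaperone-mediated autophagy, and Lamp2b (ENSMUST00000061755) differs from it in this stretch. Lamp2b had 325 of 454 reads in the control (71.6%, 67.3 to 75.5), 162 of 252 in the Tut1-deleted library (64.3%, 58.2 to 70.0), 194 of 279 in the library labelled Trp53-deleted (69.5%, 63.9 to 74.6) and 195 of 325 in the library labelled double-deleted (60.0%, 54.6 to 65.2). Of these, only the last was called against the control, at -11.6 points (Fisher's exact test, adjusted p = 0.0128). Lamp2a had 24.2%, 28.2%, 23.3% and 32.6% of the reads in the same order.

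The isoform ENSMUST00000114666 of Atp6v1a, the main transcript of the catalytic V1 subunit, had 77.8% of its gene's reads in the control (73.5 to 81.6), 90.5% in the Tut1-deleted library (86.3 to 93.5), 91.7% in the library labelled Trp53-deleted (88.0 to 94.3) and 77.6% in the library labelled double-deleted (72.4 to 82.0). Both libraries in the middle of that order were called higher than the control, and the library labelled double-deleted was called lower than either of them. With Ensembl transcripts alone these differences were between 6.07 and 7.52 points in size and were not called. Of the 2 Lgmn isoforms, ENSMUST00000021607 had 47.7% of reads in the control (39.2 to 56.2) and 17.0% in the library labelled Trp53-deleted (9.20 to 29.2), a called difference of -30.7 points, and the other isoform was its complement. It had 35.1% and 41.7% in the other libraries. The annotated Tpp1 isoform ENSMUST00000033184, of a tripeptidyl peptidase, was at 40.7%, 57.1%, 71.8% and 25.0% on 24 to 54 reads a library, called higher in the library labelled Trp53-deleted than in the control and lower again in the library labelled double-deleted. The remaining calls were for an annotated isoform of Ppt1 (ENSMUST00000121870) and one named by a read, both under 15% in each library, and an isoform of Tpp1 named by a read.

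**Figure D4:**
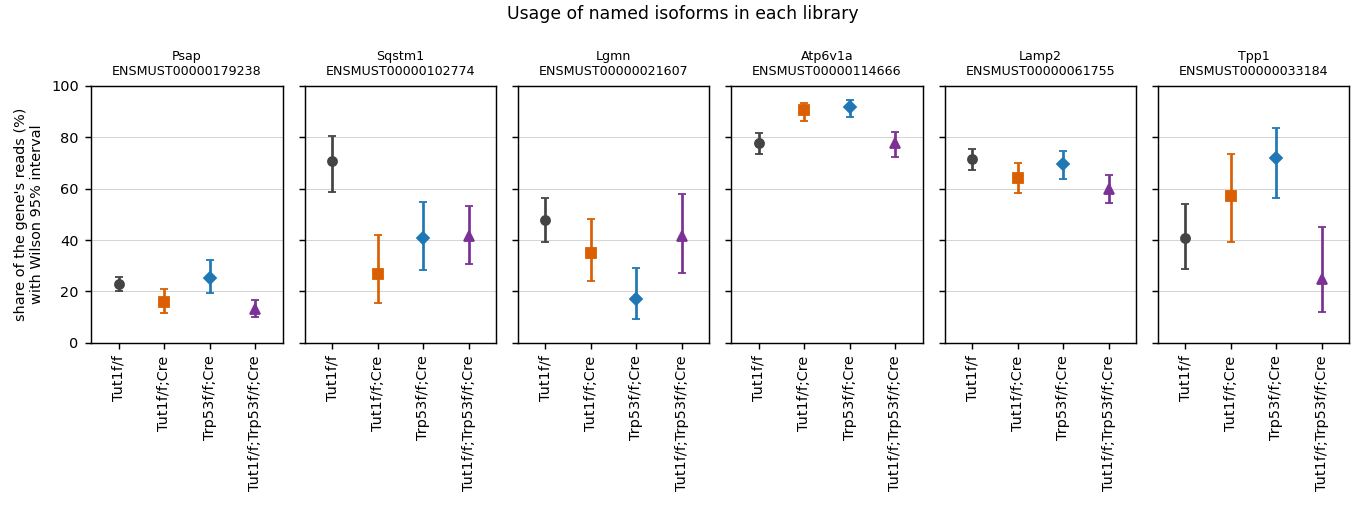
Usage of 6 isoforms (share of the gene's reads, in percent, with Wilson 95% intervals) in the 4 libraries. The Sqstm1 isoform is highest in the control at 70.8%, and that of Atp6v1a is at 77.8% and 77.6% in the control and the library labelled double-deleted and at 90.5% and 91.7% in the other two.

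Other genes of the pathway were read from lists beside the set. Of 113 tested, 26 were different between the Tut1-deleted library and the control, 19 lower and 7 higher, 35 in the library labelled Trp53-deleted (29 lower) and 22 in the library labelled double-deleted (20 lower). These are 23.0%, 31.0% and 19.5% of the lists, against 26.0%, 27.8% and 20.1% of all genes, and 16.8%, 25.7% and 17.7% lower, against 13.3%, 15.3% and 9.76%, with medians of -0.19, -0.24 and -0.21. In the fit of Cre mRNA 13 fell (11.5%, against 8.40% of all genes) and 1 rose (0.885%, against 7.94%). Of genes of endosomes and the retromer, the coat that returns receptors from endosomes, 10 of 23 (43.5%) were lower in the Tut1-deleted library and 10 in the library labelled Trp53-deleted, with 0 and 1 higher, against 13.3% and 15.3% of all genes lower, and 4 (17.4%, against 9.76%) were lower in the library labelled double-deleted. In the fit 4 of them fell (17.4%) and none rose, against 8.40% and 7.94% of all genes. Among them Snx3, a sorting nexin, was at 267, 109, 96.4 and 139 CPM in the usual order. Rab7, the GTPase of late endosomes, was at 170.5, 62.7, 44.8 and 84.4 CPM, and Tsg101, of the ESCRT complex, at 167, 73.3, 78.6 and 103 CPM. In that fit, where Cre mRNA cannot be told apart from the deletions, Snx3 fell by 1.22 (SE 0.24) and Rab7 by 1.42 (SE 0.29).

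Of 12 genes that sort lysosomal enzymes, 3 were lower (25.0%, against 13.3% of all genes) and 1 higher (8.33%, against 12.7%) in the Tut1-deleted library, 2 were lower in each of the other libraries (16.7%, against 15.3% and 9.76%), and 2 fell in the fit (16.7%, against 8.40%). Gnptg, a subunit of the enzyme that makes the mannose 6-phosphate tag, was at 123, 32.7, 35.6 and 41.7 CPM and fell by 1.75 (SE 0.24, edgeR adjusted p = 0.00134). Of the 12 genes, 1 was also higher in the library labelled Trp53-deleted (8.33%, against 12.5% of all genes) and none was in the library labelled double-deleted. Ap1m1 and Ap1g1, subunits of the clathrin adaptor AP-1, lay on opposite sides: Ap1m1 at 129, 41.3, 25.8 and 53.2 CPM and Ap1g1 at 32.9, 76.3, 59.4 and 48.1 CPM. Of 30 other hydrolases and cofactors, 2 were lower (6.67%) and 1 higher (3.33%) in the Tut1-deleted library, both below those shares of all genes. In the library labelled Trp53-deleted 7 were lower (23.3%, against 15.3%), in the library labelled double-deleted 8 (26.7%, against 9.76%), with 1 higher in each, and 3 fell in the fit (10%, against 8.40%). Of 9 further V-ATPase subunits none was different in the Tut1-deleted library, 4 (44.4%, against 15.3% of all genes) were lower in the library labelled Trp53-deleted, and none was called in the fit, where 5 of 9 had an unadjusted p under 0.05, against 35.2% of all genes.

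Of 20 autophagy genes, 3 were lower and 3 higher in the Tut1-deleted library (15.0% each, against 13.3% and 12.7% of all genes). In the library labelled Trp53-deleted 4 were lower and 2 higher (20% and 10%, against 15.3% and 12.5%). The library labelled double-deleted had 4 lower and 1 higher (20% and 5%, against 9.76% and 10.3%). Of the 20 genes, 3 fell (15.0%, against 8.40%) and 1 rose (5%, against 7.94%) in the fit. Gabarapl1, which coats autophagosomes, was at 59.1, 12.2, 11.2 and 20.3 CPM, and Nbr1, a cargo receptor like Sqstm1, at 29.2, 3.96, 4.59 and 6.10 CPM. Both fell, by 2.02 (SE 0.32, edgeR adjusted p = 0.00267) and by 2.57 (SE 0.34, adjusted p = 0.0011). Tax1bp1, another cargo receptor, rose by 1.01 (SE 0.23, edgeR adjusted p = 0.0127), from 98.6 CPM to 214, 185 and 199 CPM. Of 10 genes that place mTORC1 on the lysosome, 1 was higher in the Tut1-deleted library (10%, against 12.7% of all genes), Fnip1. None was different in the library labelled Trp53-deleted, and 1 was lower in the library labelled double-deleted (10%, against 9.76%). Their median log2 estimate in the fit was -0.09, against -0.01 over all genes. Of 9 other membrane proteins and transporters, 1 was lower (Mfsd8) and 1 higher (Slc38a9) in the Tut1-deleted library (11.1% each, against 13.3% and 12.7% of all genes). In the library labelled Trp53-deleted 2 were lower and 1 higher (22.2% and 11.1%, against 15.3% and 12.5%). The library labelled double-deleted had 1 lower (11.1%, against 9.76%). Their median log2 estimate in the fit was -0.17.

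Markers of cell types differed between the control and the other libraries as well. Of 9 neural stem cell markers, 2 rose in the fit of Cre mRNA (Hes1 and Sox9) and 0 fell (22.2%, against 7.94% of all genes called higher). By the ratio rule 4 were higher and 0 lower in the Tut1-deleted library (44.4% higher, against 12.7% of all genes). In the library labelled Trp53-deleted 3 were higher and 1 lower (33.3% and 11.1%, against 12.5% and 15.3%). The library labelled double-deleted had 1 higher and 1 lower (11.1% each, against 10.3% and 9.76%). Hes1 was at 149, 499.5, 455 and 452 CPM and Sox9 at 36.96, 86.5, 89.8 and 67.4 CPM. Vim was on the other side, at 1265, 758, 619 and 622 CPM, with log2 ratios to the control of -0.74, -1.03 and -1.02. The summed level of 5 astrocyte markers was 112, 62.7, 55.7 and 89.1 CPM in the usual order. That of 7 oligodendrocyte lineage markers was 434, 595, 682 and 484 CPM, and of 7 neuron markers 92.3, 88.2, 77.2 and 95.6 CPM. The 1 vascular marker in the table had at most 1 read. Members of these lists lay on both sides of the control. Of the oligodendrocyte lineage, Cnp was at 80.2 CPM in the control and 6.31 to 10.2 CPM in the others, whereas Olig2 was at 251, 459, 560.5 and 364 CPM and Olig1 at 67.1, 87.2, 82.1 and 77.6 CPM. Of astrocytes, Aldh1l1 was at 47.0 CPM in the control and 3.16 to 24.1 CPM in the others, and S100b, on 10 to 21 reads a library, at 2.51, 5.28, 2.87 and 7.12 CPM. Their part in the levels of lysosomal genes was not tested.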

How the data were processed

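Total RNA was sequenced by the authors on Nanopore after PCR of full-length cDNA, and they deposited 1 table of 255164 isoform entries whose values are raw counts of reads, 1 column a library. The submitters' processing notes name mm10. The study's methods name minimap2 and FLAIR with Ensembl transcripts for long reads of dissected pallium. Whether the same tools made this table, and its filters, strand use and handling of multiple matches, was not given in the sources used here, so a gene that overlaps another or has a processed copy can exchange reads with it. Here 46637 entries that named a gene were summed per gene. The others (17.2% to 30.2% of reads) were left out of library sizes and tests. Total reads per library were 3936827 to 5125888. Symbols and transcripts came from GENCODE M21 (GRCm38).

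The genes of the set, the lists and the tests were chosen with earlier results of these data known. edgeR 4.0.16 in R 4.3.3 was used with TMM over all genes, filterByExpr, and an additive model of both deletions or a model of Cre mRNA, with calls at an adjusted p under 0.05 and 2-fold. DESeq2 1.42.0 was the alternative. Standard errors are the log2 estimate over the square root of F. Ratios of CPM have Clopper-Pearson intervals on the counts of both libraries given their sum, and a gene was counted as different at 2-fold with a 95% interval excluding no change. Usage was tested by Fisher's exact test for isoforms with at least 10 reads where the gene had 20 reads or more in both libraries, at 10 points or more. Genes with values for every library are those different in any comparison or called in any fit, isoforms those called at 20% usage or more, and pathway genes at most 3 per list and direction among those different between Tut1f/f;Cre and the control, by mean CPM. Others named were chosen after their values were seen. A gene that this rule names is not reported here. Each script was tested on simulated data. Python 3.11.15 with scipy 1.17.1, pandas 2.3.3 and matplotlib 3.10.9 was used.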

Additional observations from a re-analysis of the deposited data

Results flagged for a closer look

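Psap and Glb1 were the genes of the set that passed the 2-fold rule in opposite directions for Tut1 at intact and, by label, at deleted Trp53. Of all genes, 13.3% were lower by the rule in the first comparison and 4.68% higher in the second. The share of all genes that did both was not counted. For Psap the log2 ratio was -1.54 between the Tut1-deleted library and the control and 1.48 between the libraries labelled double-deleted and Trp53-deleted. For Glb1 the values were -2.54 and 1.12. With 1 library a group the difference between the 2 ratios was not tested. The levels of Tut1 itself ran the same way, at -1.36 and 1.19. Xist, with 0, 44, 49 and 0 reads in the usual order, also separated the libraries of each pair, and its part was not tested.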

How the results depend on the processing

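No paired analysis was possible because each group had 1 library and no replicate numbers to pair. The additive model keeps no residual degree of freedom without a library, so no library was left out of it. No called value changed direction under any alternative run. In the fit of Cre mRNA, genes of the set called went from 4 to 2 with DESeq2, 1 with library totals and 2 with Ensembl transcripts alone, and from 0 to 6 when a library with Cre mRNA was left out, the 0 being without the Tut1-deleted library. At 1.5-fold, genes different numbered 11 in place of 6 (Tut1-deleted against control), 7 in place of 1 (labelled double-deleted against control), 9 in place of 2 (labelled double-deleted against labelled Trp53-deleted) and 7 in place of 1 (labelled double-deleted against Tut1-deleted). The shares of the set were then 30.6%, 19.4%, 25.0% and 19.4%, against 42.2%, 35.0%, 18.3% and 11.9% of all genes, so that in the last pair of comparisons the set lay above all genes at 1.5-fold and below them at 2-fold. With Ensembl transcripts alone, the second and last of these gave 2 and 2. With genes of at least 50 reads on average, the last pair gave 1 and 0. For isoform usage, a minimum of 20 points left 2, 1, 1 and 0 calls in these comparisons in place of 4, 2, 3 and 1. Where genes had 50 reads or more in both libraries, the Tut1-deleted library and that labelled Trp53-deleted had, against the control, 2 and 4 calls in place of 4 and 7, and the same numbers came with Ensembl transcripts alone, which left 0 between the library labelled double-deleted and the Tut1-deleted one. Library totals raise the median log2 ratio of all genes against the control by 0.12, 0.12 and 0.14. Some values rest on few reads: Glb1 rests on 11 reads in the Tut1-deleted library, Lamp1 and Mcoln1 on 10 to 24 in each library.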
